A study of Homo sapiens with 6 samples.

Results

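Folate and one-carbon metabolism was examined at the mRNA level in 786-O cells after knockdown of YB1. The 8 genes were chosen by name, as the enzymes TYMS, MTHFD1, MTHFD1L, MTHFD2, SHMT1, SHMT2, FPGS and ALDH1L2, out of 20030 genes in the deposited table. These genes and the gene lists used below were chosen with earlier results of these data known. Comparisons of their counts and medians with all genes are therefore descriptions only. 786-O is a human line of clear cell renal cell carcinoma in long-established culture. Control cells carried a scrambled shRNA (vector, n = 3 libraries), and knockdown cells carried an shRNA against YB1 (shYB1, n = 3 libraries). Both were lentivirus-infected stable lines selected with puromycin, at passages 16 to 18, and no drug treatment is given in the labels. The text of the series speaks of several independent hairpins, whereas the labels give a single shYB1 group, so hairpin sequence and off-target effects cannot be told apart from the loss of YB1. Nothing states that the 3 libraries of a group came from separate infections, so the p-values measure the spread between these libraries, which may be technical.

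Folate carries single carbon units between serine, glycine, purines, thymidylate and methionine. Serine hydroxymethyltransferase takes the carbon from serine, SHMT2 in mitochondria and SHMT1 in the cytosol. In mitochondria, MTHFD2 and MTHFD1L oxidise the carbon unit and release it as formate, and in the cytosol the trifunctional enzyme MTHFD1 takes formate back up for purine and thymidylate synthesis. Rapidly dividing cells draw most of their carbon units through the mitochondrial route, and antifolate drugs act on this pathway.

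The targeted gene was measured first. YBX1, which encodes YB1, had FPKM (fragments per kilobase of transcript, scaled to the mapped fragments of the library) of 366.5, 372.8 and 377.9 under vector, against 166.7, 165.9 and 173.3 under shYB1, so the labels and the target agree. Libraries of the same group had Pearson's correlations across genes of 0.9952 to 0.9959, and libraries of different groups of 0.9908 to 0.9919. The 7 markers chosen for these cells, among them PAX8 and VIM, were all present, with a summed level of 2345 to 2446 FPKM in vector and 2424 to 2452 FPKM in shYB1 libraries. The 10 markers of leukocytes, endothelium and differentiated tubule were all below a mean of 1 FPKM. Among them, CD3E, CDH5, UMOD, SLC12A1 and AQP2 were listed at 0 in every library. CD14 and PECAM1 had values in every library, with means of 0.392 and 0.331 FPKM, and PTPRC, CD79A and VWF had values in some. PECAM1 was lower in each shYB1 library than in any vector library. Values were tested as log2(FPKM + 0.1) over the 10439 genes averaging 1 FPKM or more. All tests are limma's moderated test, two-sided, with Benjamini-Hochberg adjustment over these genes, and a gene passed at an adjusted p under 0.05. Fold changes are given on this log2 scale, on which low genes appear to change less than they do. Depth behind each value is unknown, as FPKM keep no counts, and in bulk RNA a change per cell cannot be told apart from a change in the share of cells.

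All 8 genes passed the filter on low values. After YB1 knockdown, MTHFD2, MTHFD1, SHMT2 and TYMS rose, SHMT1 fell, and MTHFD1L, FPGS and ALDH1L2 did not pass the test. The changes were small: mean FPKM of SHMT1 fell by 11.7%, and that of MTHFD2 rose by 23.6%. Of all genes tested, 18.7% rose and 6.93% fell by the same test, 25.7% in all. The median log2 fold change of the 8 genes was 0.18, against 0.06 for all genes tested. None of the 8 met the screening criteria of the study's methods, a fold change of at least 2 with an unadjusted p under 0.05, which 0.22% of all genes met. By limma, 5 of the 8 had an unadjusted p under 0.05, as did 39% of all genes tested.

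**Figure D1:**
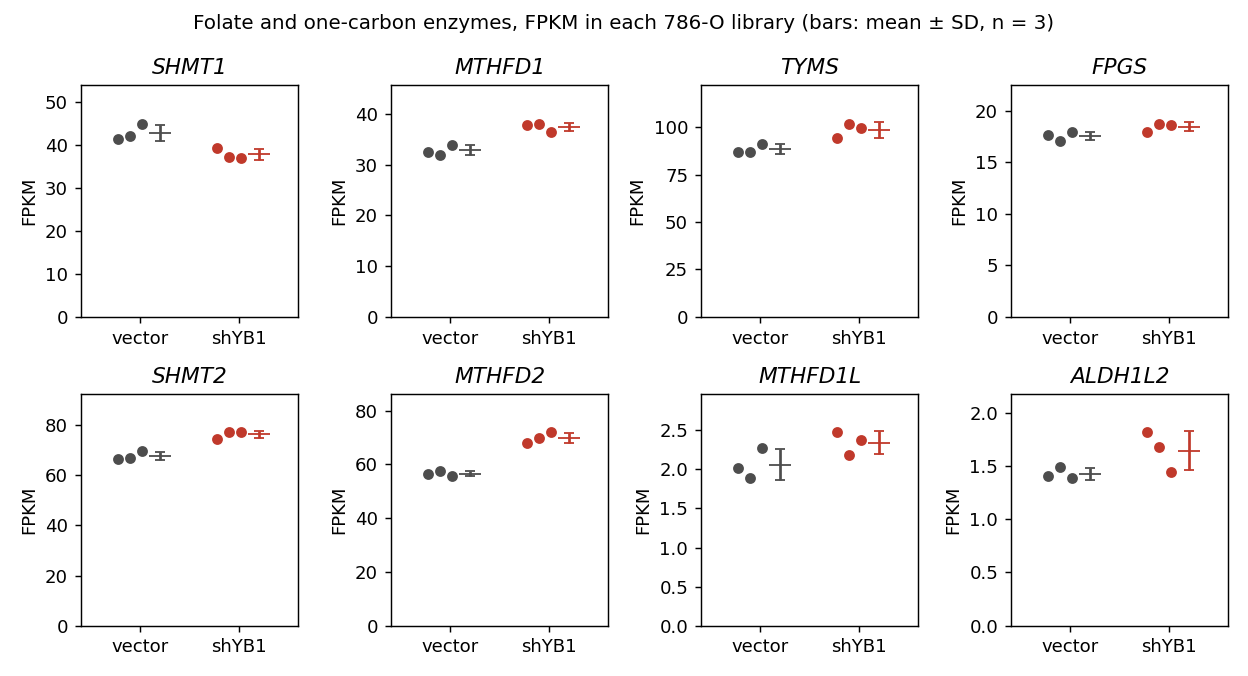
FPKM of the 8 enzymes (vertical axes from 0) in each vector (grey) and shYB1 (red) library, with each point a library and bars giving the mean ± SD (n = 3). The shYB1 points lie above all vector points in MTHFD1, TYMS, FPGS, SHMT2 and MTHFD2, below them in SHMT1, and overlap them in MTHFD1L and ALDH1L2.

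YB1 is named for the Y-box, an inverted CCAAT motif of promoters, so the promoters of the 8 genes were read for it. RefSeq promoter windows (GRCh38.p14, 250 bases before to 50 after a start) were found for 6 of the 8, and SHMT2 and ALDH1L2 had no entry. CCAAT on either strand (CCAAT or ATTGG) was present in a window of 5 of the 6, namely MTHFD1, MTHFD1L, MTHFD2, SHMT1 and FPGS, and not in that of TYMS. A gene can have several windows: counted by window, 8 of the 11 windows of these 6 genes hold the motif, and 34.6% of all 35116 windows do. Windows of a gene can overlap: the same site of MTHFD1L lies in 3 windows, and 2 windows of FPGS hold the same 2 copies. The count by window thus repeats sites, and no share of all genes was counted to set beside 5 of the 6. The motif was found both in MTHFD2, which rose most, and in SHMT1, which fell, and each window held 2 copies. A match is a description of letters, not of binding. The parts of these windows upstream of the annotated gene are printed in the direction of the gene, with the CCAAT or ATTGG copies in capitals. They are chr2:74198365-74198561 on the plus strand for MTHFD2 and chr17:18363564-18363800 on the minus strand for SHMT1.
MTHFD2: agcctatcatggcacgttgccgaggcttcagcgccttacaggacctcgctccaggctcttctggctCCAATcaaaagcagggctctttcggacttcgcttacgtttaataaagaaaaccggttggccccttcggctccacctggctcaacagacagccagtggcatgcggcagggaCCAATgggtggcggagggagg
SHMT1: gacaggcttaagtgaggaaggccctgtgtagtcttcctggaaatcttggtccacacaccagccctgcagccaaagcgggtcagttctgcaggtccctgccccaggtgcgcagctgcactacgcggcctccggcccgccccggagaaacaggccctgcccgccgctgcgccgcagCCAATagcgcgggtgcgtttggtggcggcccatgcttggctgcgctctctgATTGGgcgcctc

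Counted from the RefSeq start, the copies of MTHFD2 begin at positions −184 and −74, both as CCAAT. In SHMT1 a CCAAT begins at −76 and an ATTGG at −25. The E2F motif TTTCCCGC (either strand, in 1.63% of all windows) was found in TYMS, and the ATF4 motif TGATGNAA (either strand, in 3.62% of all windows) in MTHFD1L. A second E2F motif, TTTGGCGC (in 0.652% of all windows), was found in none of the 6. The sites are shown with the motif in capitals, from chr18:657603-657632 and chr6:150866346-150866375, both on the plus strand, since these are the only E2F and ATF4 matches among the 6 genes.
TYMS: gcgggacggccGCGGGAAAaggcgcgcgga
MTHFD1L: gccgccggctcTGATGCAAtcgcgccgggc

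The serine hydroxymethyltransferases were considered first, since the mitochondrial and the cytosolic isozyme moved in opposite directions. SHMT2 (GRCh38 chromosome 12, 57229327 to 57234935, plus strand) had 66.4, 66.8 and 69.6 FPKM under vector, against 74.6, 77.1 and 77.1 FPKM under shYB1. Each shYB1 value exceeded each vector value. The mean rose from 67.6 ± 1.72 to 76.2 ± 1.44 FPKM (SD, n = 3 each), or 0.17 ± 0.034 (SE) in log2 fold change (limma, adjusted p = 0.00463). SHMT1 (chromosome 17, 18327860 to 18363563, minus strand) had 41.4, 42.1 and 44.9 FPKM under vector, against 39.2, 37.2 and 36.9 FPKM under shYB1. Here each shYB1 value was under each vector value. The mean fell from 42.8 ± 1.87 to 37.8 ± 1.22 FPKM (SD, n = 3 each), with a value of −0.18 ± 0.042 (SE) in log2 fold change (limma, adjusted p = 0.0117).

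Because scaling of the libraries cancels in a ratio of 2 genes within a library, the balance of the isozymes was also taken as SHMT2 over SHMT1. The ratio was 1.61, 1.59 and 1.55 under vector, against 1.90, 2.07 and 2.09 under shYB1. The mean ratio was 1.58 ± 0.0286 in vector cells and 2.02 ± 0.102 in shYB1 cells (SD, n = 3 each), a difference of 0.35 on the log2 scale (standard error 0.045). The groups did not overlap, which in an exact permutation test of 3 libraries against 3 gives p = 0.1, the smallest p the design allows. This outcome was fixed beforehand, since every SHMT2 value was higher and every SHMT1 value lower under shYB1. The test thus adds nothing to the values of the 2 genes. With a library left out, this difference ran from 0.33 to 0.40.

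MTHFD2, the mitochondrial methylenetetrahydrofolate dehydrogenase and cyclohydrolase, is high in embryonic and tumour cells and low in most adult tissues. It lies on chromosome 2 from 74198562 to 74217565 on the plus strand. Its values were 56.5, 57.6 and 55.5 FPKM under vector, against 68.1, 69.8 and 71.9 FPKM under shYB1, again with no overlap. The mean rose from 56.6 ± 1.03 to 69.9 ± 1.91 FPKM (SD, n = 3 each). The log2 fold change of 0.31 ± 0.034 (SE; limma, adjusted p = 0.000194) was the largest in size of the 8 genes and ranked 702 from the highest among the 10439 genes tested. With SLC4A5, which runs on the opposite strand, MTHFD2 shares 27.2% of its exon bases. SLC4A5 itself stood at a mean of 0.106 FPKM. Any effect of the overlap on the values of MTHFD2 was not tested.

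MTHFD1, the cytosolic trifunctional enzyme, lies on chromosome 14 from 64388031 to 64463457 on the plus strand. It had 32.6, 32.0 and 33.9 FPKM under vector, against 37.8, 38.1 and 36.5 FPKM under shYB1. All shYB1 values lay above all vector values. The mean rose from 32.8 ± 0.966 to 37.5 ± 0.839 FPKM (SD, n = 3 each), with a value of 0.19 ± 0.038 (SE) in log2 fold change (limma, adjusted p = 0.00495). The ratio of MTHFD2 to MTHFD1 was 1.73, 1.80 and 1.64 under vector, against 1.80, 1.83 and 1.97 under shYB1. The lowest shYB1 value and the highest vector value of this ratio were nearly equal, and the difference was 0.11 on the log2 scale (standard error 0.056, exact permutation p = 0.1, the smallest possible). With a library left out it ran from 0.0757, without shYB1 replicate 3, to 0.146.

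The other mitochondrial members were much lower in abundance and less precise. MTHFD1L, the mitochondrial formate-releasing synthetase (chromosome 6, 150865549 to 151101887, plus strand), had 2.02, 1.89 and 2.28 FPKM under vector, against 2.47, 2.18 and 2.37 FPKM under shYB1. The groups overlapped, and the log2 fold change of 0.18 had a 95% confidence interval of −0.03 to 0.38 (adjusted p = 0.180 from limma). ALDH1L2, which oxidises the formyl group of mitochondrial folate to carbon dioxide and forms NADPH (chromosome 12, 105019784 to 105084577, minus strand), had 1.40, 1.49 and 1.39 FPKM under vector, against 1.82, 1.68 and 1.45 FPKM under shYB1. Its log2 fold change was 0.19, with a 95% confidence interval of −0.04 to 0.41 (adjusted p = 0.209 from limma), and it was 0.12 without shYB1 replicate 1 and 0.27 without shYB1 replicate 3. The intervals of both genes were wide enough to hold both no change and a rise larger than that of MTHFD2.

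The ratio of MTHFD1L to MTHFD1, the paired mitochondrial and cytosolic formate enzymes, was 0.0619, 0.0590 and 0.0672 under vector, against 0.0655, 0.0572 and 0.0650 under shYB1. The groups overlapped, and the difference was −0.0038 on the log2 scale (standard error 0.084, exact permutation p = 1).

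**Figure D2:**
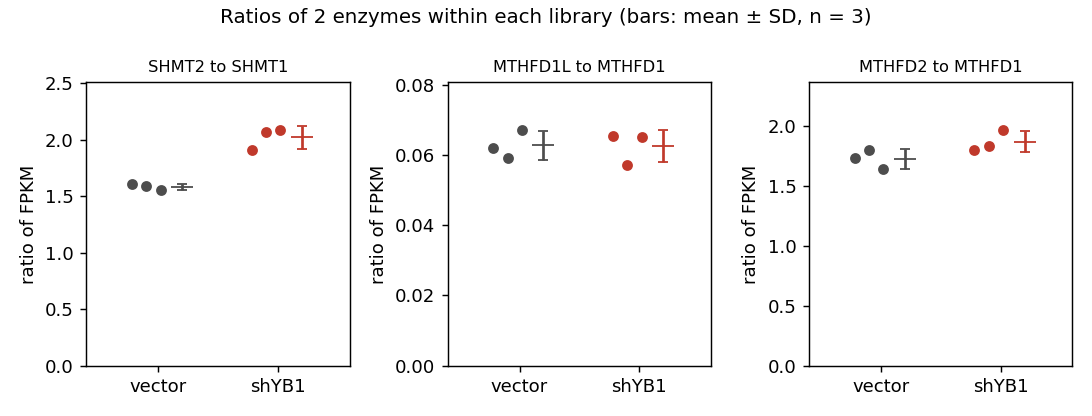
Ratios of FPKM of 2 enzymes within each library (vertical axes from 0, no unit), in vector (grey) and shYB1 (red) libraries, with bars for the mean ± SD (n = 3). SHMT2 to SHMT1 runs from 1.55 to 1.61 in vector and from 1.90 to 2.09 in shYB1 libraries, and MTHFD1L to MTHFD1 overlaps between the groups.

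TYMS, thymidylate synthase, uses methylene-folate to make dTMP for DNA synthesis and is the target of fluoropyrimidines. It lies on chromosome 18 from 657604 to 673578 on the plus strand. TYMS had 87.0, 87.2 and 91.3 FPKM under vector, against 94.1, 101.9 and 99.7 FPKM under shYB1. The groups did not overlap, and the mean rose from 88.5 ± 2.43 to 98.6 ± 4.04 FPKM (SD, n = 3 each). The log2 fold change was 0.16 ± 0.038 (SE; limma, adjusted p = 0.0148). The call was lost under median-of-ratios scaling (adjusted p = 0.0613 from limma) and without vector replicate 1 or shYB1 replicate 2 (adjusted p = 0.0540 and 0.0651 from limma). ENOSF1 on the opposite strand shares 39.1% of the exon bases of TYMS, and whether the reads were counted by strand is not given in the sources used here. ENOSF1 itself had 4.52 ± 0.143 FPKM in vector and 4.20 ± 0.161 FPKM under shYB1 (SD, n = 3 each), with a log2 fold change of −0.10 (adjusted p = 0.256 from limma).

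FPGS, folylpolyglutamate synthase, adds the glutamate tail that keeps folates and antifolates inside the cell. It lies on chromosome 9 from 127794597 to 127814327 on the plus strand. It had 17.7, 17.1 and 17.9 FPKM under vector, against 18.0, 18.8 and 18.6 FPKM under shYB1. Although the groups did not overlap, the lowest shYB1 and the highest vector value were close, and the log2 fold change of 0.07 (95% confidence interval −0.02 to 0.16, adjusted p = 0.222 from limma) was near the median of all genes. Non-overlap alone was common: the shYB1 libraries lay above all vector libraries in 30.1% of the genes tested and below them in 12.5%.

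FPKM is scaled by transcript length, and on this scale levels were set side by side. Exon bases shared with opposite-strand genes, 39.1% with ENOSF1 for TYMS and 27.2% with SLC4A5 for MTHFD2, may affect the order. This was not tested, and ranges show only the spread between libraries. In vector cells the order of mean FPKM was TYMS, SHMT2, MTHFD2, SHMT1, MTHFD1, FPGS, MTHFD1L and ALDH1L2, and no neighbours in this order had overlapping ranges. As a ratio, the largest step was between FPGS at 17.6 and MTHFD1L at 2.06 FPKM. The order was the same in shYB1 cells, except that SHMT1 (36.9 to 39.2 FPKM) and MTHFD1 (36.5 to 38.1 FPKM) could no longer be told apart by their ranges. In vector cells SHMT1 had been 1.30 times as high as MTHFD1.

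The choice of scaling matters for changes this small. When libraries were instead scaled by their median ratio to a common reference (median-of-ratios), higher genes made up 48.8% of all calls, against 73.0% with FPKM as deposited, since the median of all log2 fold changes moved from 0.06 to 0.00. Under this rescaling 11.4% of the genes tested rose and 12% fell. MTHFD2, MTHFD1 and SHMT2 still rose, with log2 fold changes of 0.25, 0.14 and 0.12 (adjusted p = 0.000698, 0.0207 and 0.0178 from limma). SHMT1 still fell, with a log2 fold change of −0.23 (adjusted p = 0.00227 from limma). The log2 fold change of TYMS was 0.10.

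**Figure D3:**
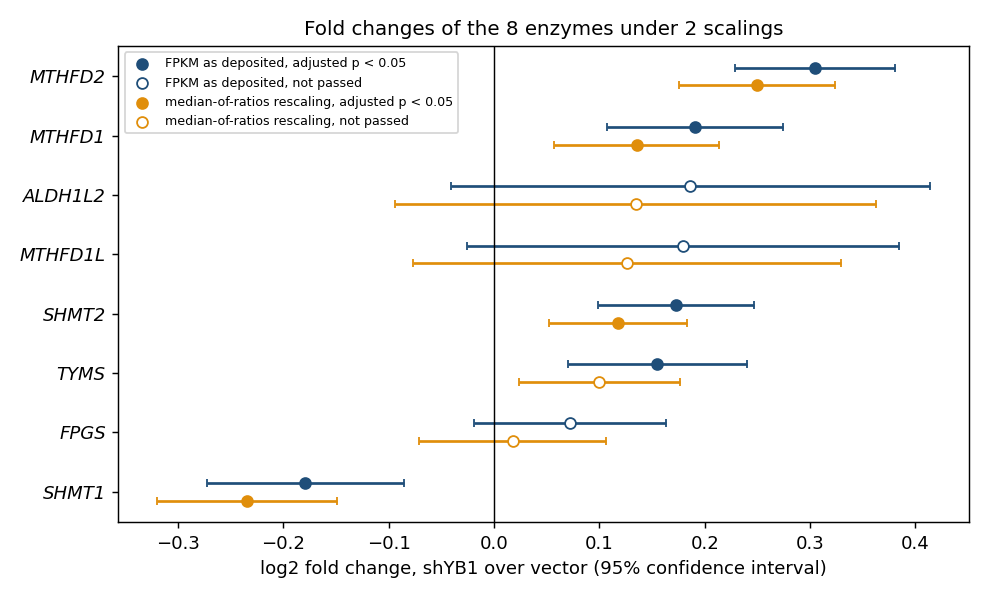
Log2 fold change (shYB1 over vector, horizontal axis) of the 8 enzymes with 95% confidence intervals, for FPKM as deposited (blue) and after median-of-ratios rescaling (orange), with filled points for an adjusted p under 0.05. MTHFD2, MTHFD1 and SHMT2 rose and SHMT1 fell under both, and TYMS passed as deposited but not after rescaling.

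**Figure D4:**
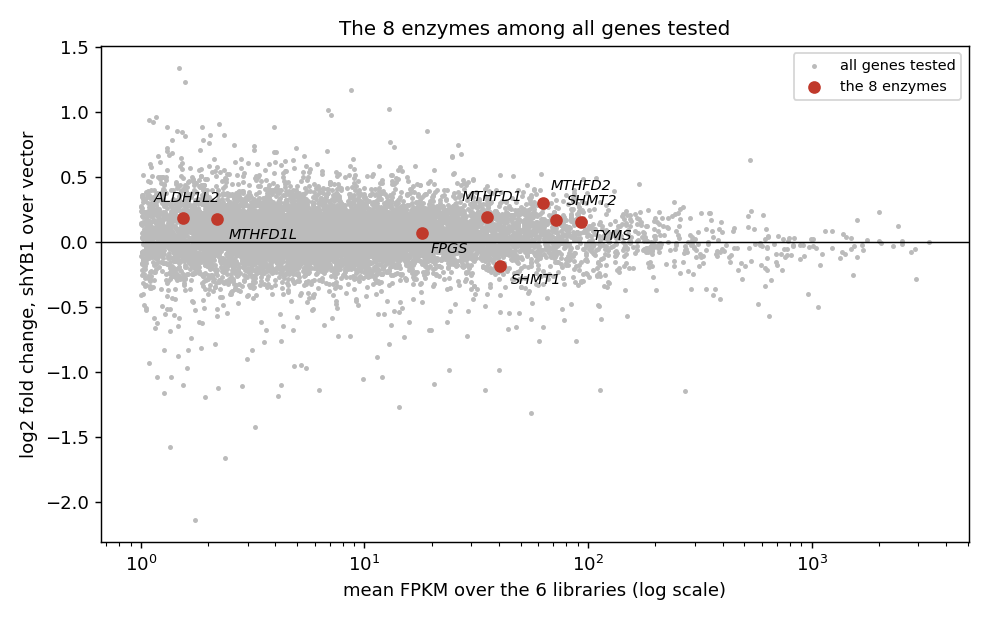
Log2 fold change (vertical axis) against mean FPKM over the 6 libraries (horizontal log axis) of the 10439 genes tested (grey), with the 8 enzymes in red. The enzymes lie within the main cloud, with MTHFD2 highest at 0.31 and SHMT1 lowest at −0.18.

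The next comparison covered 40 other genes of the pathway, listed by role, of which 27 passed the filter on low values. Of these, 6 rose and 2 fell, and 19 did not pass the test, where 18.7% of all genes tested rose and 6.93% fell. The median log2 fold change of the 27 was 0.05, close to the 0.06 of all genes tested. The same numbers rose and fell after median-of-ratios rescaling, beside 11.4% and 12% of all genes.

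In serine synthesis, which supplies the carbon donor, both genes tested rose. PSAT1, the phosphoserine aminotransferase, had 88.9, 90.0 and 92.7 FPKM under vector, against 126.7, 130.8 and 124.6 FPKM under shYB1. PSPH, the phosphatase of the last step, rose from 17.7 ± 0.603 to 22.6 ± 0.571 FPKM (SD, n = 3 each). Their log2 fold changes were 0.49 and 0.35 (adjusted p = 7.17e-06 and 0.000331 from limma). PHGDH, the first enzyme of the route, did not pass the filter, with 0.0471, 0.0385 and 0.00583 FPKM in the vector libraries, and was listed at 0 in all 3 shYB1 libraries.

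Among the other mitochondrial genes, SLC25A32, the folate carrier of the inner membrane, rose from 21.8 ± 0.489 to 25.8 ± 0.813 FPKM (SD, n = 3 each; log2 fold change 0.24, adjusted p = 0.00208 from limma). AMT, the aminomethyltransferase of the glycine cleavage system, fell from 1.65 ± 0.0869 to 1.20 ± 0.224 FPKM (SD, n = 3 each; log2 fold change −0.44, adjusted p = 0.0287 from limma). This call was lost in 5 of 14 alternatives, with adjusted p from limma up to 0.0940. These were the fit with no filter and those without vector replicate 1, vector replicate 2, shYB1 replicate 1 or shYB1 replicate 2. The other 4 tested genes of this list, DLD, GCSH, MTFMT and SARDH, did not pass, and GLDC, the decarboxylase of the same cleavage system, was under the filter.

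In the cytosol, GART, the trifunctional purine enzyme that takes its formyl group from folate, rose from 13.7 ± 0.193 to 18.2 ± 0.663 FPKM (SD, n = 3 each; log2 fold change 0.41, adjusted p = 0.000144 from limma). ATIC, the later purine enzyme that also takes a formyl group, had a log2 fold change of 0.14 (adjusted p = 0.0761 from limma). MTHFS did not pass, and ALDH1L1, the cytosolic counterpart of ALDH1L2, was listed at 0 in every library. Of the thymidylate genes, DCTD, the dCMP deaminase, had a log2 fold change of 0.18 (adjusted p = 0.00936 from limma) and lost its call under quantile normalization (adjusted p = 0.0523 from limma), whereas DUT and TK1 did not pass.

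Folate uptake was represented by FOLR1, the folate receptor alpha, which rose from 14.8 ± 0.366 to 17.3 ± 0.534 FPKM (SD, n = 3 each; log2 fold change 0.22, adjusted p = 0.00465 from limma). SLC19A1, the reduced folate carrier, had 3.91 ± 0.254 and 3.88 ± 0.110 FPKM in vector and shYB1 cells (SD, n = 3 each). GGH, the hydrolase that removes the glutamate tail, and SLC46A1 did not pass. In the methionine cycle, MTRR, which reactivates methionine synthase, fell from 25.5 ± 0.684 to 23.0 ± 0.688 FPKM (SD, n = 3 each; log2 fold change −0.15, adjusted p = 0.0234 from limma). This call was lost in 4 of 15 alternatives, with adjusted p from limma up to 0.0784. These were the variance prior without trend and the fits without vector replicate 2, shYB1 replicate 2 or shYB1 replicate 3. None of the other 6 tested genes of that list passed, though CTH had an unadjusted p of 0.0221 by limma. MAT2A, the methionine adenosyltransferase among them, stood at 166.3 ± 2.72 FPKM in vector and, under shYB1, at 168.1 ± 2.96 FPKM (SD, n = 3 each).

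**Figure D5:**
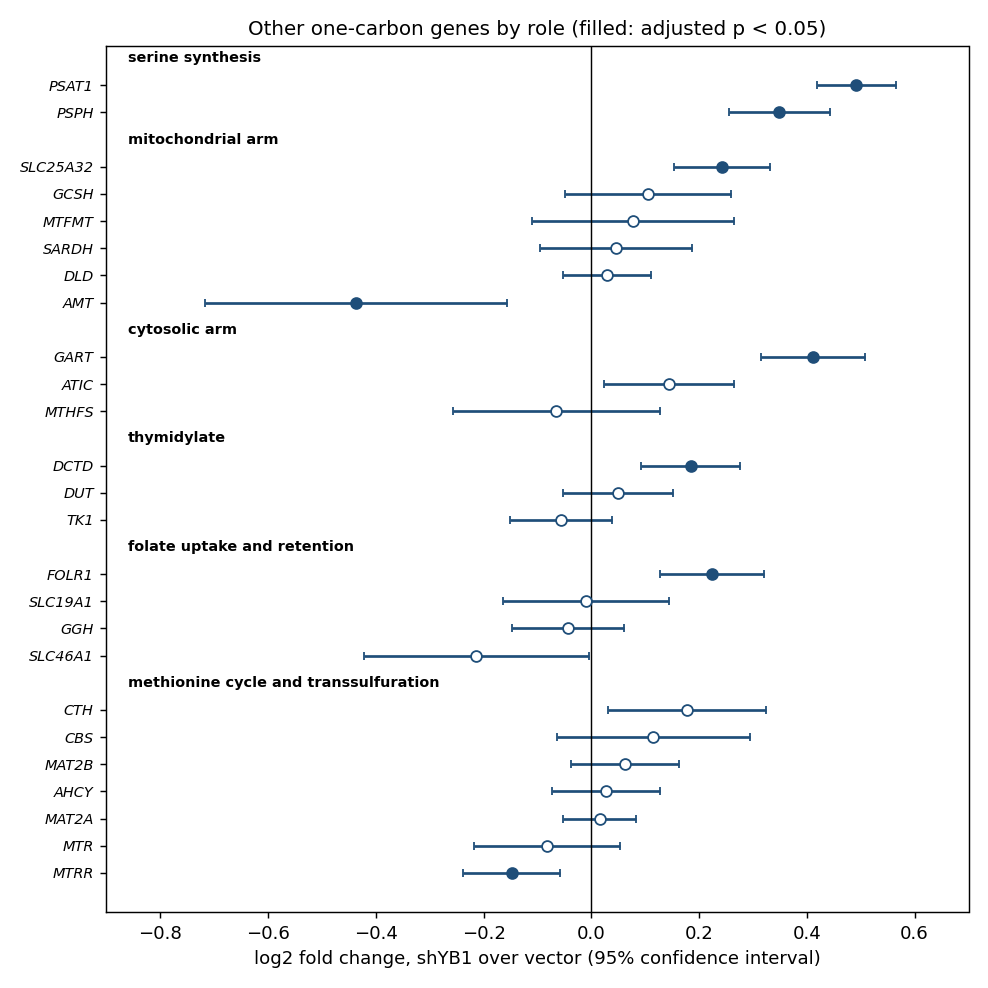
Log2 fold change (shYB1 over vector, horizontal axis) with 95% confidence intervals of 25 of the other pathway genes tested, grouped by role, with filled points for an adjusted p under 0.05. PSAT1 at 0.49, GART at 0.41 and PSPH at 0.35 lie farthest to the right and AMT at −0.44 farthest to the left.

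In the table's own annotation, 7 of the 8 genes belong to the KEGG pathway for the folate carbon pool, all but FPGS. The pathway holds 16 tested genes, of which 5 rose and 2 fell, against 18.7% and 6.93% of all genes, and 5 of these 7 calls are the members MTHFD2, MTHFD1, SHMT2, TYMS and SHMT1 themselves. The KEGG pathway for antifolate resistance holds TYMS, SHMT1, SHMT2 and FPGS. Of its 25 tested genes 5 rose and 4 fell, beside 18.7% and 6.93% of all genes. The members TYMS and SHMT2 are among those that rose, and SHMT1 is among those that fell.

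Genes of the S phase and targets of ATF4 were set beside these values, since TYMS is expressed in S phase and MTHFD2, SHMT2, PSAT1 and PSPH are known ATF4 targets. The S phase list of 16 genes also took in genes of the wider cell cycle, MKI67, TOP2A and CDK1 among them. By limma, 5 of the 16 rose and 0 fell (0 lower also at an unadjusted p under 0.05), where 18.7% of all genes rose and 6.93% fell. The summed level of the 16, with FPKM as deposited, was 481.3 to 492.5 FPKM in the vector and 530.3 to 537.5 FPKM in the shYB1 libraries. Such a sum is weighted towards the most abundant genes. Of the 16, 11 did not pass, and their median log2 fold change as a list was 0.11, against 0.06 for all genes tested. PCNA, the DNA polymerase clamp, had a log2 fold change of 0.24 and the helicase subunit MCM4 of 0.23 (adjusted p = 0.000618 and 0.000966 from limma). After median-of-ratios rescaling 3 of the 16 rose and 1, TOP2A, fell, beside 11.4% and 12% of all genes. Their part in the changes of the folate enzymes was not tested.

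The ATF4 list of 10 genes counts ATF4 itself along with its targets. Of the 10, 3 rose and 3 fell, ATF4 among the latter, beside 18.7% and 6.93% of all genes. After median-of-ratios rescaling 3 rose and 4 fell, beside 11.4% and 12% of all genes. The summed level was 502.7 to 530.7 FPKM in the vector and 509.5 to 537.0 FPKM in the shYB1 libraries. The stress-induced transcription factor ATF3, ASNS, the asparagine synthetase, and TRIB3 rose, with log2 fold changes of 0.56, 0.21 and 0.18 (adjusted p = 0.000148, 0.00259 and 0.00589 from limma). VLDLR, a lipoprotein receptor, and CEBPB, a transcription factor, fell, with log2 fold changes of −0.25 and −0.23 (adjusted p = 0.00305 and 0.0372 from limma), and the call of CEBPB was lost in 6 of 15 alternatives, among them the fits without vector replicate 1 or 3 or shYB1 replicate 1 or 2, with adjusted p from limma up to 0.116. ATF4 itself had 73.3, 73.1 and 74.6 FPKM under vector, against 66.7, 68.3 and 70.0 FPKM under shYB1. Its mRNA thus lay lower in every shYB1 library, with a log2 fold change of −0.11 (adjusted p = 0.0322 from limma), and the call was lost in 6 of 15 alternatives, of which 5 each left out a library, any but shYB1 replicate 3, with adjusted p from limma up to 0.118. The part of ATF4 in the changes of the folate enzymes was not tested.

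By Pearson's r over the 6 libraries, the genes most like MTHFD2 were TOR3A, KPNA1 and ADI1, with r of 0.9990, 0.9986 and 0.9974. Their log2 fold changes were 0.35, 0.18 and 0.29. In all, 535 of the 10439 genes tested had an r above 0.95 with MTHFD2. These r include the step between vector and shYB1, and MTHFD2 was chosen for the size of that step. A high r therefore mainly restates that a gene rose with the knockdown, and no link to MTHFD2 was tested.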

How the data were processed

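mRNA of 786-O cells was sequenced in 3 vector and 3 shYB1 libraries, grouped by their titles. The authors deposited FPKM per gene. The submitters' processing notes name Trimmomatic, HISAT2, Cufflinks, HTSeq and DESeq and the build GRCh38, without roles. All 6 columns of values were used. FPKM hold no counts, so depth is unknown. Values were transformed as log2(FPKM + 0.1) and the 10439 genes averaging 1 FPKM or more entered limma 3.58.1 in R 4.3.3 (trend and robust variance prior, no block), checked on simulated data. The members and gene lists were chosen with earlier results of these data known. The naming rule took all 8 members, listed pathway genes that passed, and for the member with the largest called change the 3 genes of highest r. Beyond this rule, other listed genes that did not pass or were not tested were named as well. Where none of a role's genes passed, the 2 most abundant would be named. Of the pathway genes counted, 2 are not reported here by name. Positions and exon overlaps are from GENCODE release 29, and promoters from RefSeq (GRCh38.p14). Shared 50-base words with other genes made up at most 3.72% of the transcripts of any of the 8 genes. Alternatives were pseudocounts, filters, scalings, the variance prior, a replicate block and each library left out. Python 3.11.15 was used for the remaining steps.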

Additional observations from a re-analysis of the deposited data

How the results depend on the processing

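Over 15 alternatives, MTHFD2, MTHFD1, SHMT2 and SHMT1 kept direction and call (adjusted p from limma at most 0.0446, for SHMT1), and none of the 8 genes changed sign. TYMS lost its call in 4, of which the variance prior without trend gave an adjusted p of 0.0611 from limma. MTHFD1L, FPGS and ALDH1L2 passed in none. With a filter at 5 FPKM, MTHFD1L and ALDH1L2 were not tested. Of all genes, 1956 were higher and 723 lower; median-of-ratios rescaling gave 1192 and 1253, and quantile normalization 1267 and 1184. Of the other pathway genes, 5 were higher under quantile normalization, and 1 was lower with no filter, with a filter at 5 FPKM and with the variance prior without trend, and 0 to 2 were lower with a library left out. Leaving out a library gave a log2 difference of −0.0466 to 0.0593 for the MTHFD1L to MTHFD1 ratio, which turned positive without vector replicate 3 (0.0473) or shYB1 replicate 2 (0.0593). With the replicate number as a block, 2074 genes were higher and 760 lower, and the calls of the 8 genes were the same. The numbers did not pair the libraries: same-numbered libraries had correlations of their deviations from the group means of −0.169, −0.0590 and −0.0082.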
